A study of Arabidopsis thaliana with 11 samples.

Results

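The genes COR47, LTI30, AT4G38410, COR15A, COR15B, LEA4-5, M10 and DI21 encode dehydrins and other late embryogenesis abundant (LEA) proteins, and their expression was followed in sorted root cells of salt-treated and untreated Arabidopsis thaliana seedlings. They were taken by gene name from the annotation of the array's probe sets. Each of the 8 genes had 1 probe set, out of 13350 genes that the annotation names through a single-gene probe set and 22746 probe sets tested. RNA came from fluorescent protoplasts released from roots and collected by flow sorting, and was measured on 11 Affymetrix arrays. Pericycle cells of line J2731 gave 3 arrays with salt and 2 without, and cortex cells of line J1551 gave 3 arrays with salt and 3 without. All seedlings were 7 days old. Salt-treated seedlings grew for 5 days without salt and for 2 days with it, first at 25 mM NaCl with 0.22 mM CaCl2 and then at 50 mM NaCl with 0.375 mM CaCl2, while control seedlings had no added NaCl for all 7 days. A cell type is defined here by the fluorescence of 1 marker line, so line and cell type cannot be told apart, and every sample, control or salt, passed through cell wall digestion and sorting. Replicates were separate tanks, since the labels count all seedlings of 1 tank as 1 sample.

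LEA proteins are very hydrophilic proteins that accumulate in drying seeds and, in vegetative tissue, during drought, cold and high salinity. They are largely disordered in solution and are thought to protect membranes and enzymes as water is lost. Dehydrins are the LEA group with the lysine-rich K-segment, which can fold on membrane surfaces. Many of these genes are induced through abscisic acid, the drought hormone, or through the CBF/DREB factors of the cold and drought response.

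The values are the deposited log2 expression values, and differences between groups are log2 differences with limma standard errors. A probe set is called dim where its mean over the 11 arrays was below 2.81, a limit that 40% of the probe sets fell under. Arrays of a group correlated at 0.917 to 0.966 in pericycle salt, 0.947 in pericycle control, 0.993 to 0.994 in cortex salt and 0.987 to 0.99 in cortex control samples. The array of pericycle salt replicate 1 was unlike the others of its group, with a limma array weight of 0.171, and the calls for pericycle under salt are also given without it. Of the 5 pericycle markers listed, 1 had a single-gene probe set, LBD16, a transcription factor gene of lateral root initiation in the pericycle. It lay between 5.92 and 7.07 on the pericycle arrays and between 1.93 and 2.47 on the cortex arrays. Of the 4 cortex markers listed, 3 had a single-gene probe set and 2 of these were dim. Their mean ran from 3.14 to 3.75 on the pericycle arrays and from 2.67 to 3.11 on the cortex arrays, so these markers do not show that the cells of line J1551 were cortex cells.

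Salt raised the expression of 4 of the 8 genes in one cell type or the other, none passed in both, and COR47 and LTI30, whose probe sets were far brighter than the dim limit everywhere, were not among them. In cortex cells AT4G38410, M10 and DI21 rose by 4.38-fold, 2.84-fold and 2.36-fold. In pericycle cells LEA4-5 rose by 2.82-fold, a call close to the threshold. Of 17 alternative fits, the cortex calls of M10 and DI21 held in all and that of AT4G38410 in 12. The pericycle call of LEA4-5 held in 6 of 17. Thus 3 of 8 genes rose and none fell in cortex, where 1.43% of all probe sets rose and 2.73% fell, and 1 of 8 rose and none fell in pericycle, where 1.04% of all probe sets rose and 0.95% fell (limma, adjusted p under 0.05 over all probe sets). At an unadjusted p under 0.05, 4 were higher and none lower with salt in pericycle, where 7.88% of all probe sets were higher and 8.12% lower, and 4 were higher and 1, COR47, lower in cortex, where 7.72% were higher and 7.1% lower. The median log2 difference of the 8 genes was 0.24 in pericycle and 0.44 in cortex, against medians of -0.0006 and 0.014 over all probe sets. The 8 genes were chosen with earlier results of these data known, so these shares and medians are no test of them as a set.

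**Figure D1:**
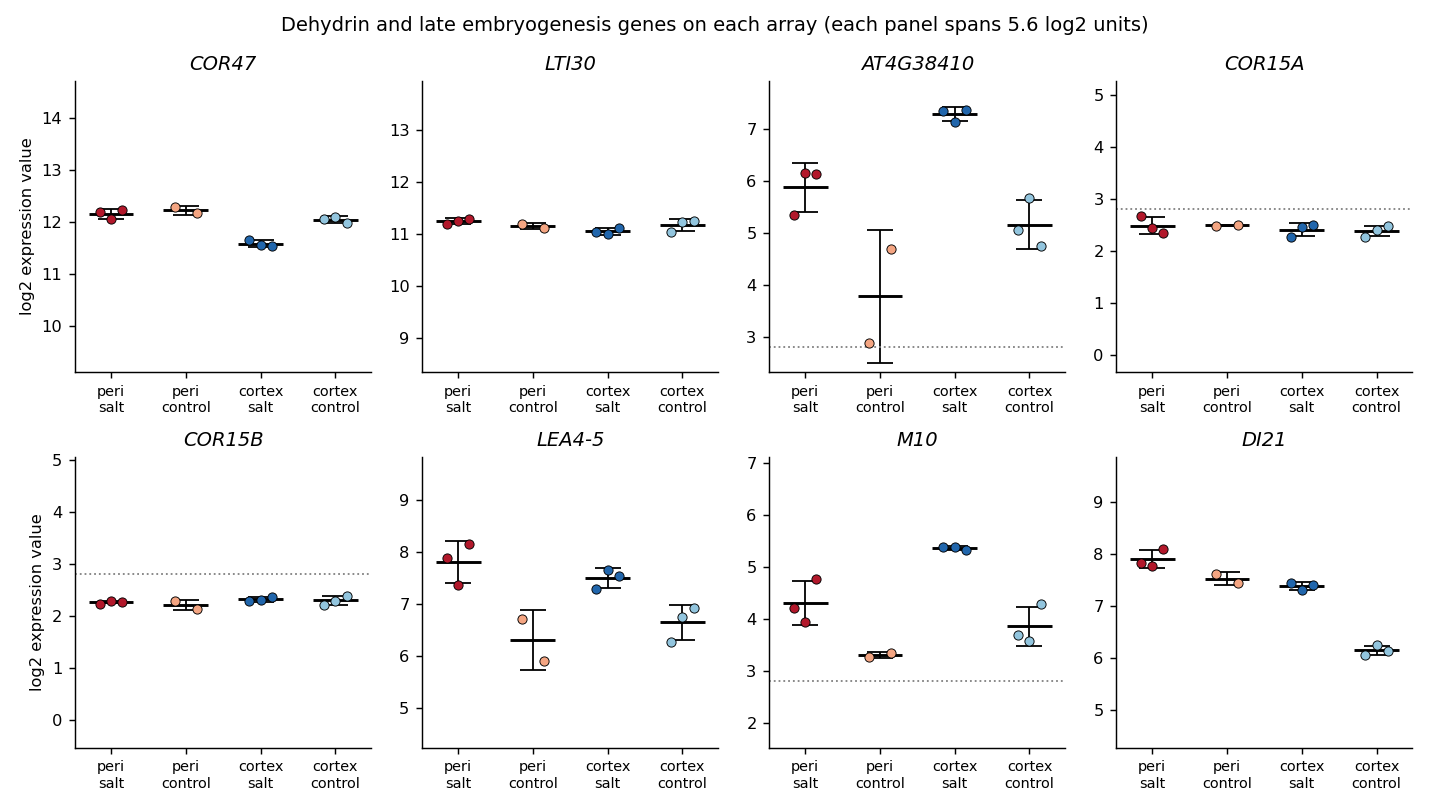
Log2 expression value of each gene on every array, by group (points), with the group mean (thick bar) and SD (whiskers; n = 2 in pericycle control, 3 in the other groups). Each panel has its own range of 5.6 log2 units, and the dotted line marks the dim limit of 2.81. COR47 and LTI30 sat at 10.99 or higher on every array, COR15A and COR15B below the dim limit on every array, and the other genes were spread between.

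AT4G38410 encodes a small dehydrin and showed the widest spread of the 8 genes, 4.5 log2 units between its lowest and highest array. Its values were 5.34, 6.15 and 6.15 in pericycle salt samples, against 2.88 and 4.69 in pericycle control samples. In cortex they were 7.35, 7.15 and 7.38 with salt, against 5.06, 5.68 and 4.75 without salt. In both cell types every salt array lay above every control array, as did 10.2% of all probe sets in pericycle and 19.3% in cortex.

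The difference in cortex was 2.13 ± 0.431 (SE, n = 3 and 3, adjusted p = 0.0231). In pericycle it was as large, 2.10 ± 0.482 (n = 3 and 2), but missed the threshold (adjusted p = 0.0582), with a 95% interval of 1.02 to 3.17. The pericycle control arrays had an SD of 1.28 and the lower of them was close to the dim limit, so the difference there was 3.00 without pericycle control replicate 2 and 1.19 without replicate 1. Without pericycle salt replicate 1 it was 2.37 (adjusted p = 0.0331). The cortex call was lost without any single cortex array other than cortex control replicate 2, at adjusted p values up to 0.105. In a sorted bulk sample, more cells with the transcript and more transcript per cell cannot be told apart.

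COR47, a cold- and drought-induced acidic dehydrin, was near the top of the scale, whose highest probe set value was 12.9. It had 12.19, 12.06 and 12.24 in pericycle salt samples and 12.29 and 12.17 in pericycle control samples, and these groups overlapped. In cortex it had 11.66, 11.56 and 11.55 with salt, against 12.06, 12.11 and 11.98 without. All salt arrays lay below all control arrays in cortex, as did 14.8% of all probe sets. The cortex difference of -0.46 ± 0.132 did not pass (adjusted p = 0.0964). It passed with array weights (adjusted p = 0.00426), with a mean-dependent robust prior (0.0193) and with only the cortex arrays fitted (0.0207). Over all probe sets 4775, 797 and 4487 passed in these fits, against 946 in the main fit. In pericycle the difference was -0.07 ± 0.148 (95% interval -0.40 to 0.26), and the difference between the responses did not pass either (0.40 ± 0.199, adjusted p = 0.474).

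LTI30, also called XERO2, is a basic dehydrin that binds membranes and is induced by low temperature. It was the steadiest of the bright genes, with 11.19, 11.26 and 11.29 in pericycle salt against 11.19 and 11.10 in pericycle control samples, and 11.04, 10.99 and 11.11 in cortex salt against 11.03, 11.23 and 11.25 in cortex control samples. All 11 values lay within 0.301 log2 units. The salt difference was 0.10 (95% interval -0.23 to 0.43) in pericycle and -0.12 (-0.42 to 0.18) in cortex, and neither passed. How far so bright a probe set can still register a rise was not tested.

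COR15A and COR15B encode closely related chloroplast-targeted proteins that protect membranes during freezing, and they are adjacent genes on chromosome 2 in the RefSeq annotation. Both were dim in these root cells. COR15A ran from 2.35 to 2.67 in pericycle salt, 2.49 to 2.50 in pericycle control, 2.28 to 2.50 in cortex salt and 2.28 to 2.48 in cortex control samples. COR15B ran from 2.23 to 2.28, 2.13 to 2.27, 2.28 to 2.37 and 2.21 to 2.38 in the same groups. The groups overlapped or lay within a few hundredths of each other, and no comparison passed. The salt differences were -0.01 and 0.03 for COR15A and 0.05 and 0.02 for COR15B in pericycle and cortex, each with a 95% interval within 0.38 of 0. At this level a probe set gives little room to see a fall, so only the absence of a measurable rise can be read from these values.

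LEA4-5 belongs to the LEA group that forms helices on drying, and protects enzymes from loss of water in vitro. Its values were 7.88, 7.36 and 8.16 in pericycle salt samples, against 6.71 and 5.91 in pericycle control samples. They were 7.28, 7.66 and 7.54 in cortex salt samples, against 6.28, 6.74 and 6.92 in cortex control samples. The salt arrays lay above the control arrays in both cell types, as in 10.2% of all probe sets in pericycle and 19.3% in cortex.

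The rise in pericycle was 1.50 ± 0.313 (n = 3 and 2, adjusted p = 0.0432). In cortex the difference was 0.85 ± 0.28 (n = 3 and 3) and did not pass (adjusted p = 0.156), though it passed with array weights (adjusted p = 0.00694) and with only the cortex arrays fitted (0.0127). The pericycle call was close to the threshold. It held without pericycle salt replicate 1 (1.46, adjusted p = 0.0498), but was lost with array weights (adjusted p = 0.236), with only the pericycle arrays fitted (0.594), with replicate number as a block (0.0947), and without any of 8 single arrays, namely all 6 cortex arrays, pericycle control replicate 2 and pericycle salt replicate 3.

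M10 encodes a hydrophilic LEA-like protein known from embryos. Its values were 4.21, 3.94 and 4.76 in pericycle salt samples and 3.25 and 3.35 in pericycle control samples. In cortex they were 5.38, 5.38 and 5.32 with salt, and 3.70, 3.57 and 4.29 without. The salt arrays lay above the control arrays in both cell types, as in 10.2% of all probe sets in pericycle and 19.3% in cortex. The salt-treated cortex arrays had an SD of only 0.0345. M10 rose by 1.51 ± 0.241 in cortex (adjusted p = 0.00724). The pericycle difference of 1.01 ± 0.27 did not pass (adjusted p = 0.0947, or 0.0838 without pericycle salt replicate 1).

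DI21, a drought-induced gene whose protein is related to the LEA protein SAG21, separated the cell types as well as the treatments. It had 7.83, 7.77 and 8.09 in pericycle salt and 7.61 and 7.43 in pericycle control samples. It had 7.43, 7.30 and 7.41 in cortex salt and 6.04, 6.23 and 6.14 in cortex control samples. The cortex control samples stood well below the other groups. The rise in cortex was 1.24 ± 0.147 (adjusted p = 0.0013), and the call held in all 17 alternative fits run, as did that of M10 in cortex. In pericycle the difference was 0.38 ± 0.164 (adjusted p = 0.297), with every salt array above both control arrays, as in 10.2% of all probe sets.

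**Figure D2:**
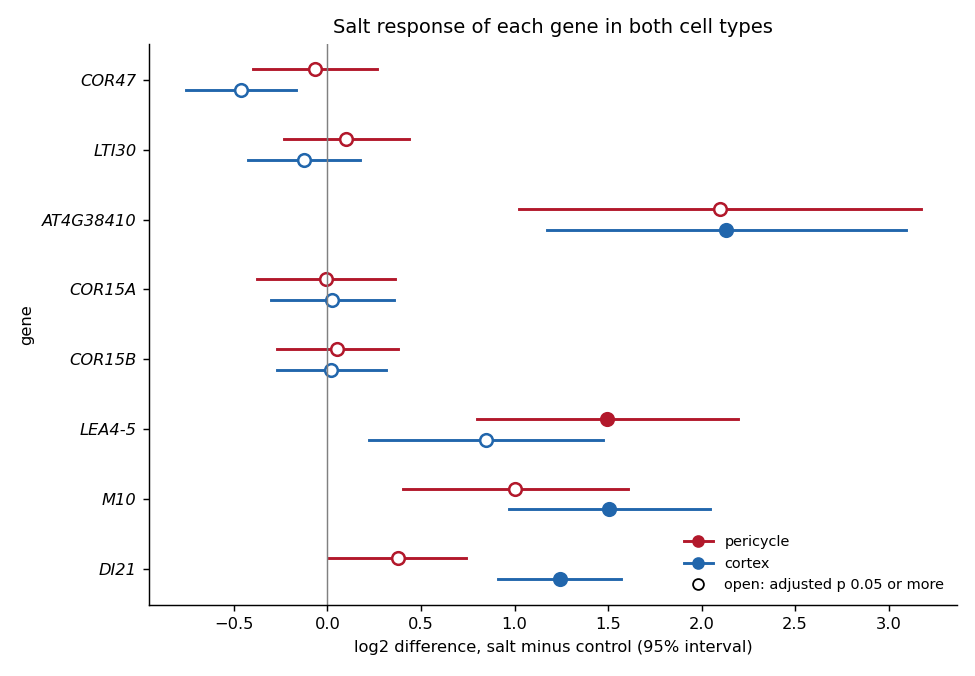
Log2 difference between salt and control samples for each gene (points) with its 95% interval (lines), in pericycle (red, upper) and cortex (blue, lower). Filled points have an adjusted p under 0.05 over all probe sets. AT4G38410, M10, LEA4-5 and DI21 lie to the right of 0 in both cell types, and COR47 lies left of 0 in cortex.

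The response in pericycle was then set against that in cortex. None of the 8 genes had a difference of responses that passed in limma, where 0.835% of all probe sets did. DI21 had the smallest p of the 8 genes, with a response 0.87 ± 0.22 smaller in pericycle. Its log2 difference of responses was -0.87 (limma, unadjusted p = 0.00283, adjusted p = 0.116), and it ranked 554 by p among all probe sets. It is named here for that p, after the values were seen. For the other responsive genes the 95% intervals were wide. The difference of responses was -0.03 (-1.47 to 1.41) for AT4G38410, -0.50 (-1.31 to 0.31) for M10 and 0.65 (-0.29 to 1.58) for LEA4-5. These data therefore do not show that LEA4-5 responded in pericycle alone, nor AT4G38410 and M10 in cortex alone.

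Under salt 4 of the 8 genes differed between the cell types, 2 higher and 2 lower in pericycle, where 7.76% of all probe sets were higher and 10.1% lower. AT4G38410 and M10 were lower in salt-treated pericycle than in salt-treated cortex, by 1.41 ± 0.431 and 1.05 ± 0.241 on the log2 scale (log2 differences -1.41 and -1.05, adjusted p = 0.0479 and 0.0135). COR47 and DI21 were higher in pericycle by 0.57 ± 0.132 and 0.52 ± 0.147 (adjusted p = 0.0139 and 0.0358). In these 4 genes all salt-treated pericycle arrays lay on the same side of all salt-treated cortex arrays, as they did upward in 15% and downward in 19.1% of all probe sets. The calls for AT4G38410 and DI21 did not outlast most changes of the fit: that of AT4G38410 held in 7 and that of DI21 in 5 of 17 alternatives, while M10 held in 16 and COR47 in 15. Without pericycle salt replicate 1 the call for AT4G38410 was lost (-1.14, adjusted p = 0.121), and those for M10 (-1.01, adjusted p = 0.029), COR47 (0.56, 0.0216) and DI21 (0.55, 0.0374) held.

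Without salt, DI21 was the 1 gene of 8 that differed between the cell types, where 6.71% of all probe sets were higher and 8.18% lower in pericycle. It was 2.6-fold higher in pericycle control than in cortex control samples (1.38 ± 0.164, adjusted p = 0.000487), and the call held in all 17 alternatives. For AT4G38410 the difference was -1.38 ± 0.482 (adjusted p = 0.0891), with both pericycle control arrays below all cortex control arrays, as in 22.4% of all probe sets. The excess of DI21 in pericycle was thus 0.52 with salt, against 1.38 without, and the test of that change is the difference of responses, which did not pass. The comparisons of this and the preceding paragraph share their arrays with the salt comparisons.

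**Figure D3:**
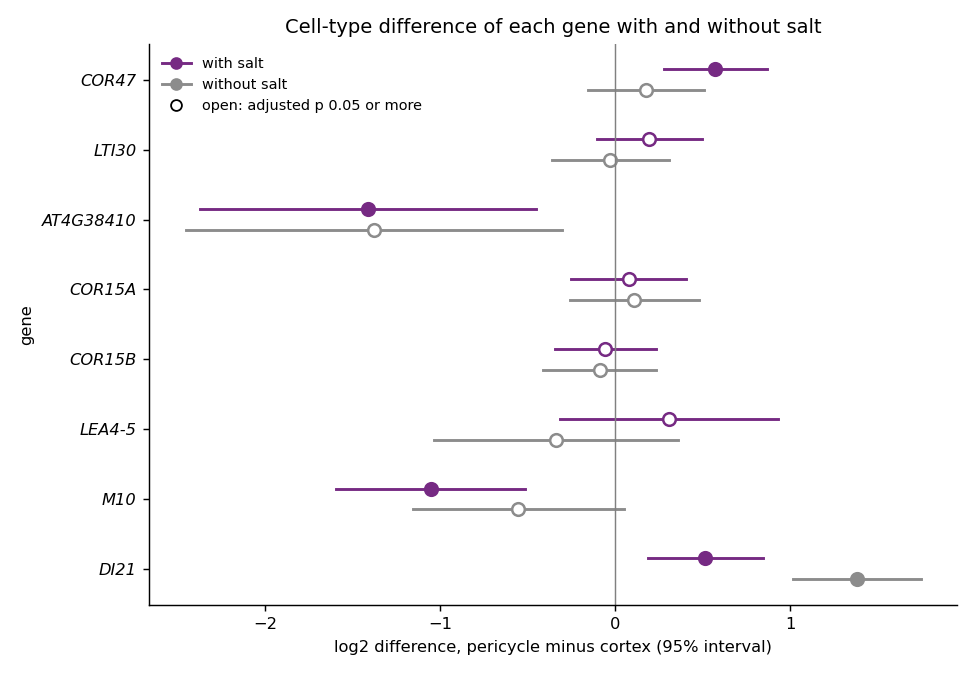
Log2 difference between pericycle and cortex samples for each gene (points) with its 95% interval (lines), with salt (purple, upper) and without salt (grey, lower). Filled points have an adjusted p under 0.05 over all probe sets. DI21 lies right of 0 in both conditions, and AT4G38410 and M10 lie left of 0.

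The order of the group means differed between the genes. AT4G38410 and M10 had the same order, with cortex salt highest (means 7.29 and 5.36), then pericycle salt (5.88 and 4.31), cortex control (5.16 and 3.85) and pericycle control (3.78 and 3.30). Cortex salt stood clear of the next group in both, whereas pericycle salt and cortex control overlapped, and cortex control lay just above pericycle control without overlap. Pericycle lay below cortex without overlap in 19.1% of all probe sets with salt and in 22.4% without. LEA4-5 ran from pericycle salt (7.80) over cortex salt (7.49) and cortex control (6.65) to pericycle control (6.31), and only the step between the salt and the control groups was free of overlap. In cortex 19.3% of all probe sets had such an upward step with salt. DI21 ran from pericycle salt (7.89) over pericycle control (7.52) and cortex salt (7.38) to cortex control (6.14). Pericycle control and cortex salt touched at 7.43. COR47 had its lowest group in cortex salt (11.59), below pericycle control (12.23), pericycle salt (12.16) and cortex control (12.05). Pericycle salt overlapped both control groups. For LTI30 each group overlapped the next in the order of means, from pericycle salt (11.25) over cortex control (11.17) and pericycle control (11.15) to cortex salt (11.05).

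Across the 11 arrays, which fall into 4 groups and share the contrast of cell types and treatments, AT4G38410 and M10 had a Pearson r of 0.856. COR47 ran against both, with r = -0.788 and -0.821. After subtraction of the group means these became -0.121, -0.213 and 0.121. The likeness was thus seen between groups and was not seen among the arrays of a group, where r over so few arrays is imprecise.

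Other LEA genes were listed by locus to place the 8 genes in their family. This list, like the 8 genes, was chosen with earlier results of these data known. Of 40 listed, 22 had a single-gene probe set, and 8 of these were dim. In pericycle 1 of the 22 rose with salt and none fell in limma, where 1.04% of all probe sets rose and 0.95% fell. In cortex none passed, where 1.43% rose and 2.73% fell. At an unadjusted p under 0.05, 2 were higher and 1 lower in pericycle, where 7.88% and 8.12% of all probe sets were. In cortex 1 was higher and 1 lower at that p, where 7.72% and 7.1% were. Their median log2 difference was 0.06 in pericycle and -0.05 in cortex, against -0.0006 and 0.014 over all probe sets. The gene that rose was AT3G15670, a LEA protein gene, with 9.16, 8.72 and 9.40 in pericycle salt samples against 7.62 and 7.56 in pericycle control samples (1.50 ± 0.263, adjusted p = 0.0239, or 1.47 with adjusted p = 0.0282 without pericycle salt replicate 1, a fit chosen after seeing the data). All its pericycle salt arrays were above both control arrays, as in 10.2% of all probe sets. With only the pericycle arrays fitted, 0 of all probe sets passed for salt, so this call was lost there. In cortex it had 8.29, 8.92 and 8.18 with salt and 8.57, 8.88 and 8.76 without, and these overlapped (-0.27, adjusted p = 0.762). Its responses differed by 1.77 between the cell types, short of the threshold (adjusted p = 0.0538).

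Between the cell types more of these family members differed than with salt, as was so for all probe sets. Under salt, 1 of the 22 was higher and 4 were lower in pericycle than in cortex, where 7.76% and 10.1% of all probe sets were. Without salt none was higher and 6 were lower, where 6.71% of all probe sets were higher and 8.18% lower. AtLEA4-1, a paralog of LEA4-5, was 7.36-fold lower in pericycle control than in cortex control samples (-2.88 ± 0.339, adjusted p = 0.000463) and 5.74-fold lower under salt (-2.52 ± 0.303). LEA4-5 itself did not pass in either comparison (-0.34 without salt, 0.31 with salt). AT5G60530 was also lower in pericycle in both conditions, with log2 differences of -2.12 with salt and -1.86 without. AT4G13230 passed in the same direction in both, but all its pericycle values, 2.23 to 2.61, lay below the dim limit, so the size of its difference is not given. A list of 36 further abscisic acid and water-deficit genes, such as regulators of the hormone response, had 0 single-gene probe sets in the annotation and is not analysed here.

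**Figure D4:**
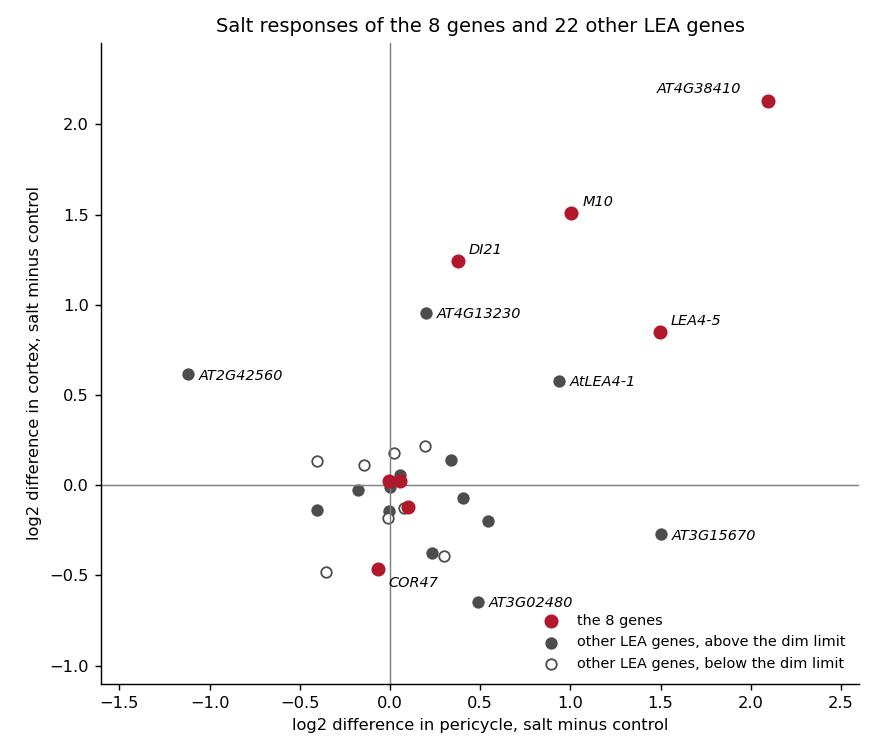
Log2 salt difference in pericycle (horizontal axis) and in cortex (vertical axis) for the 8 genes (red) and the 22 other LEA genes (grey, open where dim). AT4G38410, M10, DI21 and LEA4-5 lie in the upper right, most other LEA genes lie near 0, and AT3G15670 lies at 1.50 in pericycle and -0.27 in cortex.

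For each gene the 3 most similar genes were taken by Pearson r over the 11 arrays, out of 7433 single-gene probe sets that were not dim. These r values describe arrays that fall into groups, and the candidates were many. Genes chosen by r tend to share the group pattern of the gene they were chosen for. Their salt differences below are therefore no separate evidence on that gene. After subtraction of group means, r for the pairs named here ran from -0.518 (DI21 with AT4G18280) to 0.965 (COR15A with AT4G07680). LTI30 was most like AT3G02480 (r = 0.896), itself a LEA family gene, then AT5G46780 (0.851) and AT1G18485 (0.811). M10 was most like AT2G34930 (0.944), UGT76E1, a glycosyltransferase gene (0.94), and AT2G23120 (0.937), a small LEA protein gene. AT4G38410 was most like AT3G42860, AT5G02240 and AT3G18350 (0.941, 0.938 and 0.937). LEA4-5 was most like GRXC2, a glutaredoxin gene (0.925), AT4G25730 (0.904) and AT5G38895 (0.904), of which the last pair rose with salt in pericycle by 2.20 and 1.26. DI21 was most like AT4G10480 (0.961), AT5G16070 (0.955) and AT4G18280 (0.954). COR47 was most like AT2G20625, AT5G40450 and AT3G59350 (0.968, 0.965 and 0.961), all of which fell with salt in cortex (log2 differences -1.28, -2.91 and -1.39). The dim COR15A and COR15B were most like AT2G03460, AT4G07680 and AT4G16900 (0.939, 0.936 and 0.917) and AT1G48090, AT2G45730 and AT3G15351 (0.902, 0.841 and 0.834), in that order.

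Several of the 8 genes stand beside a relative in the RefSeq gene order. COR47 is next to ERD10 and LTI30 next to XERO1, both dehydrin genes, but neither neighbour has a single-gene probe set in the annotation. M10 is next to M17, a seed LEA protein gene. M17 was dim, with a mean of 1.94 over all arrays, and differed by 0.04 with salt in pericycle and by -0.15 in cortex, without passing. SWEET17, a vacuolar sugar transporter gene beside DI21, differed by 0.10 in pericycle and by 1.09 in cortex and did not pass (adjusted p = 0.0536 in cortex). These neighbours were looked up after the values of the 8 genes were seen.

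Markers of other cells and a measure of RNA quality were read on the same arrays. Of 6 root hair markers listed, 2 had a single-gene probe set in the annotation, EXPA7 and EXPA18. Their mean ran from 2.57 to 4.36 in pericycle salt against 3.61 to 4.33 in pericycle control samples, and from 2.82 to 3.90 in cortex salt against 4.79 to 5.30 in cortex control samples, without a call for either gene. Of 3 phloem markers listed, OPS was the 1 with a single-gene probe set. It ran from 6.51 to 7.80 in pericycle salt and 5.66 to 6.30 in pericycle control samples. In cortex it ran from 3.99 to 4.47 in salt and 3.99 to 4.49 in control samples. OPS was thus higher in pericycle than in cortex, by 2.82 with salt and 1.67 without (limma, adjusted p = 0.000269 and 0.0122). Of all probe sets, 7.76% and 6.71% were higher in these comparisons. Whether phloem cells were among the sorted cells was not tested. No listed endodermis or xylem marker had a single-gene probe set in the annotation. The GAPDH 3' minus 5' difference, which grows as RNA is degraded, was 0.70 ± 0.265 (SD, n = 3) in pericycle salt, 0.40 ± 0.164 (n = 2) in pericycle control, 0.78 ± 0.0873 (n = 3) in cortex salt and 0.64 ± 0.0834 (n = 3) in cortex control samples. The part of these values in the results for the 8 genes was not tested.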

How the data were processed

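The deposited table holds log2 expression values made by the authors, with 22810 probe sets on each of 11 arrays. RMA and limma are listed in the submitters' processing notes, with neither a version nor a role. That the scale is log2 follows from the range of the values, and the making of values near the floor is not stated. Values were used as deposited, after 64 control probe sets were left out. Genes came from the platform annotation (13513 probe sets with 1 gene, 503 with several, 8730 with none), and 13436 of the single-gene probe sets were matched by gene identifier to RefSeq, assembly TAIR10.1.

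1 model with a mean per group was fitted to the 11 arrays (limma 3.58.1, R 4.3.3; 7 residual and 2.96 prior degrees of freedom). P values are two-sided and Benjamini-Hochberg adjusted over 22746 probe sets within a comparison, and a gene passed under 0.05. The steps were tested on simulated data. The number of arrays, 2 or 3 per group, limits the precision, and no detection calls were used. The alternatives were fits of the compared groups alone, array weights, a trended robust prior, quantile normalization, removal of dim probe sets, a replicate block and leaving out each array. Residuals of same-numbered arrays correlated between -0.151 and 0.107 over 15 pairs, so the numbers were not used to pair arrays. The genes, the lists and the tests were chosen with earlier results of these data known. By rule the text names the 8 genes, members of the 2 gene lists that passed with salt, or the 2 largest differences where none passed, and the 3 most similar genes of each. Other list members named between cell types, and the neighbours, were chosen after their values were seen.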

Additional observations from a re-analysis of the deposited data

How the results depend on the processing

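In cortex 3 of the 8 genes rose with salt, and 2 to 3 did without a single array; with only the cortex arrays fitted, or with array weights, 5 were called, as COR47 and LEA4-5 were added. In pericycle 1 rose, and 0 to 2 were called without a single array. With only the pericycle arrays fitted it was 0, with array weights 0, with a replicate block 0, and without dim probe sets 2, since AT4G38410 then passed. Over all probe sets, 453 passed for salt in pericycle in the main fit, and 0, 32, 194 and 435 in these fits, in that order. For salt in cortex 946 passed in the main fit, 4487 with only the cortex arrays fitted and 4775 with array weights. Under salt 4 genes differed between cell types, and 1 to 4 without a single array; without salt 1 did, and 1 to 2 without a single array. No difference of responses was called in any of 16 alternatives. Where fewer probe sets or arrays do not account for a change, the cause was not tested. Leaving out a pericycle control array leaves 1, which is then assumed to vary like the other groups.

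Reversals touched differences that had not passed. With quantile normalization COR15A was 0.031 for salt in pericycle, -0.016 between cell types under salt and -0.0033 without salt, LTI30 was 0.11 between cell types without salt, and the difference of responses of AT4G38410 was 0.14. With array weights the last was 0.30. With the replicate block LTI30 was 0.0055 between cell types without salt. Without a single array, salt in cortex ran from -0.029 to 0.094 for COR15A and from -0.022 to 0.066 for COR15B, and salt in pericycle from -0.097 to 0.064 and from -0.017 to 0.12. The difference of responses ran from -0.94 to 0.87 for AT4G38410, from -0.12 to 0.039 for COR15A and from -0.037 to 0.10 for COR15B. Between cell types, COR15A ran from -0.013 to 0.15 under salt, and without salt LEA4-5 ran from -0.74 to 0.064 and LTI30 from -0.098 to 0.015.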

Other observations

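AT2G42560, a LEA family gene that did not pass in any salt comparison, had the largest downward salt difference in pericycle among the 22 other LEA genes. It had 4.58, 4.95 and 6.29 in pericycle salt samples against 6.14 and 6.65 in pericycle control samples, which overlap. In cortex it had 7.14, 7.03 and 7.01 with salt against 6.48, 6.48 and 6.38 without, all salt arrays above, as in 19.3% of all probe sets. The log2 differences were -1.12 in pericycle (adjusted p = 0.21) and 0.61 in cortex (adjusted p = 0.536), and the difference of responses was -1.74 (adjusted p = 0.203). Under salt it was lower in pericycle than in cortex (-1.79, adjusted p = 0.00752). It was named after its values were seen.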
